A study of Mus musculus with 73 samples.

Results

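The genes described here are the translation initiation and elongation factors of 73 single inner hair cells of the mouse cochlea. Every row of the count table whose symbol begins with Eif or Eef followed by a number was taken, and 13 pseudogene rows with -ps in the symbol were left out. This gave 72 of 55291 gene rows. By function the rule reaches beyond the factors themselves. It also takes kinases and methyltransferases that act on them, proteins that repress the cap-binding step, and Eif2c5, whose symbol follows the older naming of the Argonaute genes. Of the 72 genes, 58 had a mean of at least 10 CPM (counts scaled to a common library total), the limit for correlations, and 14 were below it.

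Protein synthesis starts when eIF2 brings the initiator tRNA to the small ribosomal subunit, where eIF1, eIF1A and the large eIF3 complex help to find the start codon. The eIF4 factors bind the capped end of the mRNA and unwind it, and eIF5 and eIF5B complete the joining of the large subunit. Elongation then needs eEF1A, which carries each aminoacyl tRNA to the ribosome, and eEF2, which moves the ribosome along the mRNA. Mammals have a pair of eEF1A genes: in mouse neurons and muscle Eef1a2 takes over from Eef1a1 after birth. The levels of both genes in each cell show which of them these hair cells held at postnatal day 14. Without another age, they cannot show whether such a change took place after birth.

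All 73 cells were GFP+ and tdTomato+ and were picked by hand at postnatal day 14. Their mice carried Atoh1Cre/+ and Casz1flox/flox, so that Cre, made where Atoh1 of developing hair cells is active, removed Casz1, a zinc-finger transcription factor. The same mice carried Fgf8-Flpo/+, which makes Flp where the inner hair cell gene Fgf8 is active. The reporter alleles at Rosa26 were CAG-Loxp-stop-Loxp-3xGFP (Ai47) and CAG-Frt-stop-Frt-tdTomato. Wild-type inner hair cells were not analysed here, so no value below says what the loss of Casz1 changed. Since the labels name no animal, all cells together were treated as a single unreplicated sample, p-values were not computed, and every correlation across cells is a description of these libraries.

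Libraries held 11027945 to 37183702 counts (median 17333640), so that 1 count was worth 0.0907 CPM in the shallowest and 0.0269 CPM in the deepest. Casz1 read 0 to 283 CPM (median 42.1), but the labels do not name the exons removed, and this gene therefore checks nothing. General hair cell markers were present throughout, with a median of 14 of 16 at 10 CPM or more in a cell. Of the 12 inner hair cell markers, 4 were detected in every cell, and the median cell had 9. Of the 14 outer hair cell markers, 2 were detected in every cell and Insm1 in none. The median cell had 8 of these 14, and their sum ranged from 845 to 21379 CPM (median 4824). In 22 cells a gene of another cell type found in few of the cells reached 50 CPM. The correlations of Eef1a1 and Eef1a2 with Slc26a5 are also given without these cells, while levels and pair shares are for all 73. Slc26a5, the gene of the outer hair cell motor prestin, ranged from 0 CPM in 4 cells to 1229 CPM (median 73.1) and is the gene against which the factors were ranked.

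The factors took 0.730% to 1.43% of the counts of a cell (median 1.07%), and a few genes made up most of that. Eif1 alone held 14.4% of the summed mean CPM of the 72 genes, and the 10 genes with the highest means held 57.9%. A median of 45 of the 72 genes was detected in a cell (range 36 to 53), where detection meant 10 CPM or more. In all 73 cells 10 genes were detected, which are 17.2% of the 58 tested, against 7.25% of all genes tested. These were Eif1, Eef1a1, Eif5a, Eif4a2, Eef2, Eif4g2, Eif3f, Eif4h, Eef1b2 and Eif5b. The tested factors also had a higher median of mean levels, 110 CPM against 42.1 CPM over all genes tested. Their spread was ordinary for their level: 30 of 58 (51.7%) lay below the trend of spread on mean level, against 50.1% of all genes.

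**Figure D1:**
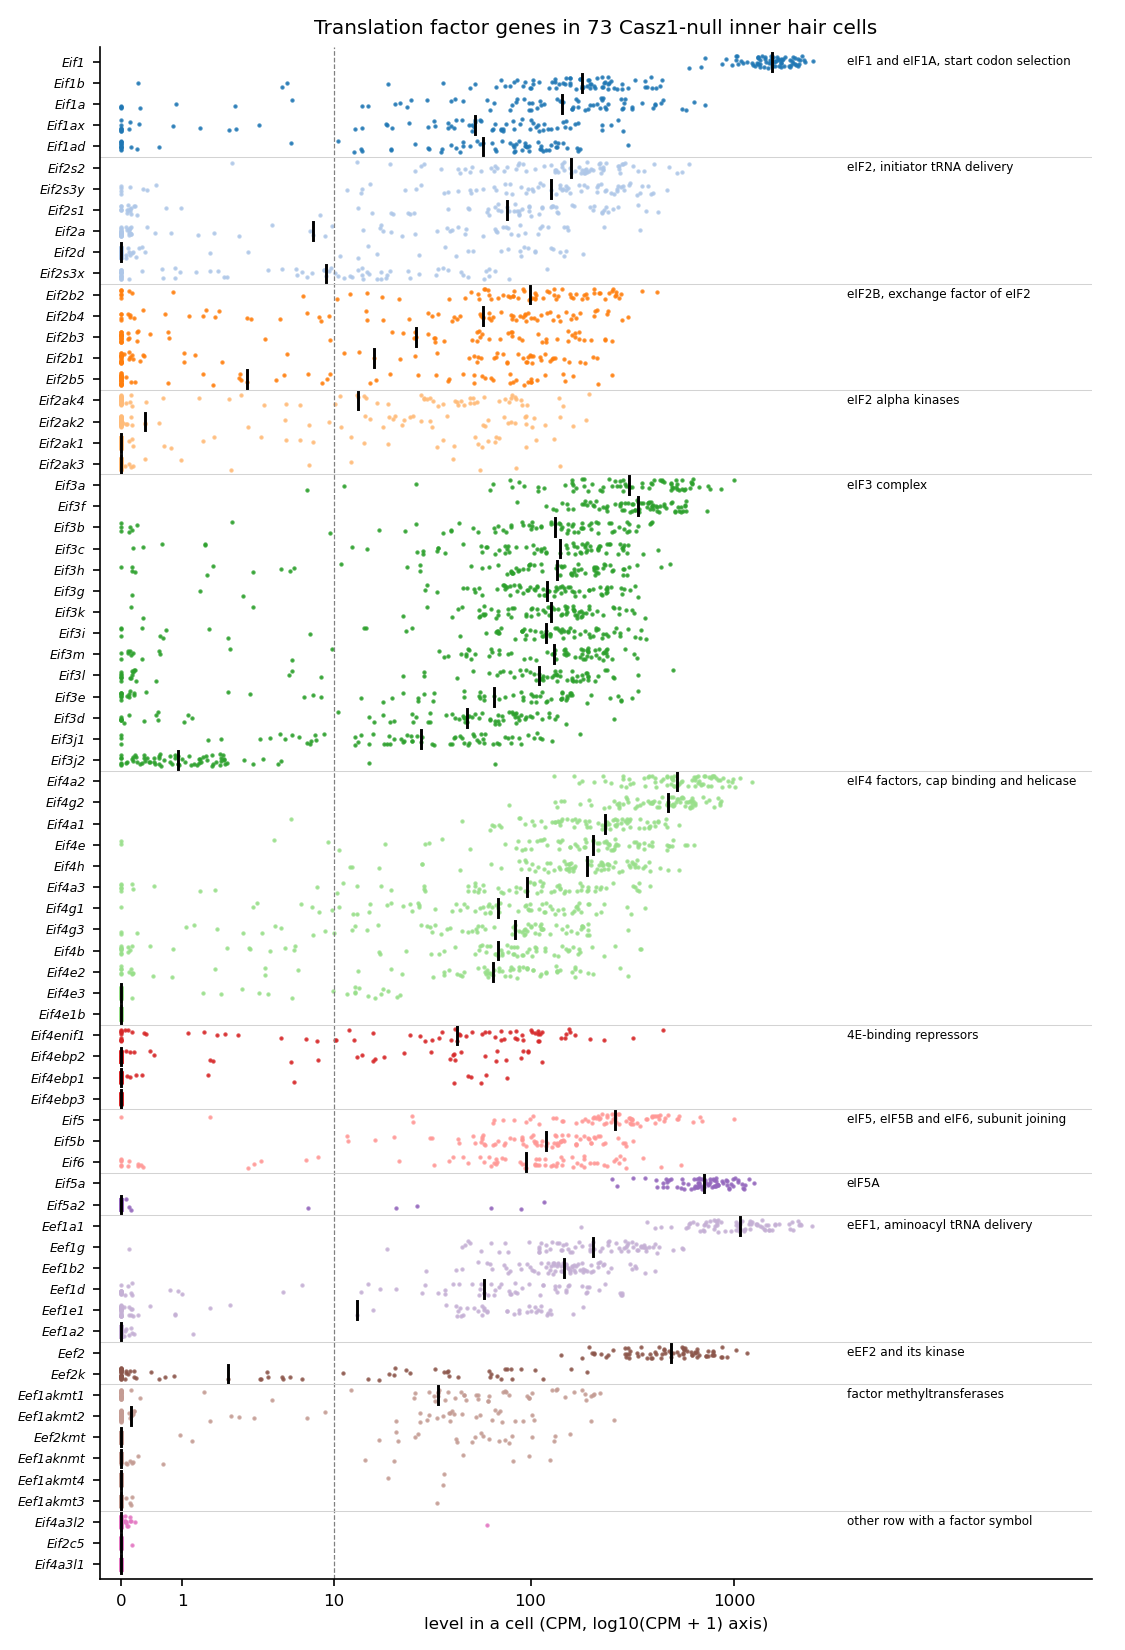
Level of each of the 72 genes in each of 73 cells in CPM on a log10(CPM + 1) axis, ordered by role and within a role by mean; each point is a cell, the black bar is the median and the dashed line marks 10 CPM. Eif1 and Eef1a1 lie furthest to the right. Eef1a2, the methyltransferase genes Eef1aknmt, Eef1akmt3 and Eef1akmt4, and Eif4ebp1 and Eif4ebp3 are among the genes at or near 0 in most cells.

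The start codon factors were led by Eif1, which keeps the ribosome scanning until the right AUG is reached. It had the highest mean of all the factors and ranged from 600 CPM in the lowest cell through a median of 1537 CPM to 2429 CPM in the highest. Its close relative Eif1b ranged from 0.213 to 442 CPM (median 179). Per kilobase of exon, Eif1b was below Eif1 in 73 of 73 cells. Eif1a, which works with eIF1 on the same ribosomal subunit, ranged from 0 to 722 CPM (median 143), and its X-linked relative Eif1ax from 0 to 285 CPM (median 53.3). Eif1a was the higher of this pair per kilobase in 58 of 73 cells. Both were detected in 50 cells, only Eif1ax in 7, only Eif1a in 15 and neither in 1. Eif1ad, which encodes a protein with an eIF1A-like domain, was detected in 56 cells (0 to 302 CPM, median 58.4).

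Eif2s1, Eif2s2 and the Eif2s3 pair encode the alpha, beta and gamma subunits of eIF2. Eif2s2 ranged from 2.48 to 599 CPM (median 158) and Eif2s1 from 0 to 426 CPM (median 76.6). The gamma subunit has an X-linked and a Y-linked gene. Eif2s3y ranged from 0 to 470 CPM (median 126), and Eif2s3x from 0 to 120 CPM (median 9.05). Per kilobase the Y-linked copy was the higher in 61 of 73 cells and the X-linked copy in 11. At least 1 of 4 Y-linked genes was detected in 72 cells, and Xist did not exceed 0.269 CPM in any cell. Of the 50-base stretches of Eif2s3x, 36.2% also occur in other annotated genes, against none of Eif2s3y, and the sources used here do not say how reads with several matches were counted. Eif2a and Eif2d, which despite their symbols encode separate factors that can deliver initiator tRNA, were sparser, with 34 cells (0 to 344 CPM) and 23 cells (0 to 181 CPM).

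eIF2B recharges eIF2 with GTP, and its 5 subunit genes were uneven. Eif2b2 had a median of 99.6 CPM and Eif2b4 of 58.3 CPM. Eif2b3 had a median of 26.9 CPM (0 to 252), Eif2b1 of 16.4 CPM, and Eif2b5, the catalytic subunit, of 3.13 CPM (0 to 252). The 4 eIF2 alpha kinases, which shut initiation down under stress, were each detected in 40 cells or fewer. Eif2ak4, the sensor of amino acid shortage, was detected in 40 cells (0 to 193 CPM, median 13.5). Eif2ak2, activated by double-stranded RNA, was detected in 31 cells (0 to 188 CPM). Eif2ak1, activated by lack of haem, was detected in 16 cells (0 to 130 CPM), and Eif2ak3, the kinase of the endoplasmic reticulum, in 5 (0 to 140 CPM). For both of these the median cell had no count.

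Genes of the eIF3 complex, the scaffold that joins the small subunit to mRNA, were detected in most cells, but at different levels. Eif3f was detected in every cell (85.4 to 733 CPM, median 339) and Eif3a, the largest subunit, in 72 (7.19 to 1000 CPM, median 303). Another 10 subunit genes had medians from 48.6 CPM (Eif3d) to 140 CPM (Eif3c) and were detected in 53 to 70 cells, among them Eif3i (0 to 371 CPM, median 119) and Eif3g (0.138 to 340 CPM, median 121). Eif3j1 was lower, with a median of 28.4 CPM. Levels per length depended on the length used. Per kilobase of all exons, Eif3f averaged 119 CPM, Eif3k 49.5 CPM and Eif3e 12.7 CPM, while per kilobase of the longest coding transcript of each gene, a choice added after the values were seen, they averaged 137, 147 and 56.6 CPM. Eif3j2 shares 91.8% of its 50-base stretches with other genes, Eif3j1 first among them, so its level (median 0.898 CPM) and its rank correlation of 0.67 with Eif3j1 are uncertain.

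Among the cap-binding and helicase factors, the leading genes were a helicase and a scaffold. The helicase gene Eif4a1 ranged from 5.83 to 534 CPM (median 233), and Eif4a2, a form abundant in brain, from 131 to 1220 CPM (median 527). Eif4a1 was the lower of this pair per kilobase of exon in 62 of 73 cells (56 of 73 per kilobase of transcript), with a median log2 ratio of Eif4a1 over Eif4a2 of -1.04 (SD 1.02 over cells). The level of Eif4a1 is also the less certain, because 65.3% of its 50-base stretches occur in other genes. Of the scaffold genes, Eif4g2, which lacks the part of eIF4G that binds the cap protein, ranged from 78.4 to 863 CPM (median 473). It exceeded Eif4g1 per kilobase in 65 cells and Eif4g3 in 71. The full-length scaffold genes Eif4g1 (0 to 365 CPM, median 69.4) and Eif4g3 (0 to 302 CPM, median 83.7) were detected in 66 and 61 cells. Eif4a3, a related helicase that marks exon junctions, ranged from 0 to 389 CPM (median 96.4), and Eif4b, which stimulates the helicase, from 0 to 351 CPM (median 69.1).

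The cap-binding protein gene Eif4e ranged from 0 to 634 CPM (median 203) and was detected in 69 cells. Its relatives Eif4e2 and Eif4e3 were detected in 57 cells (0 to 302 CPM) and 12 cells (0 to 22.3 CPM), while Eif4e1b, a germ-line form, had no count. Eif4h, which aids the helicase, ranged from 12.2 to 537 CPM (median 190). Against these stood few transcripts of the 4E-binding proteins, which block Eif4e when mTORC1 is inactive. Eif4ebp2, the main form of the brain, was detected in 21 cells (0 to 113 CPM), Eif4ebp1 in 6 cells (0 to 76.7 CPM) and Eif4ebp3 in 0 of 73. The gene AC115631.1 overlaps 67.3% of the exon bases of Eif4ebp3 on the same strand and shares 65.5% of its 50-base stretches. Reads there may not be counted for Eif4ebp3, so its lack of counts does not show that the transcript was absent. A count of 0 cells allows up to 4.11% of cells by a limit of 3 cells, or 4.93% by the exact interval. Both limits take the cells as independent draws, and with no animal named they cover no difference between animals. Eif4enif1, which carries eIF4E into the nucleus and represses bound mRNAs, was the most frequent of this role, with 50 cells.

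For subunit joining, Eif5, the GTPase activator of eIF2, ranged from 0 to 996 CPM (median 261). Eif5b, the GTPase of the last step, ranged from 11.8 to 318 CPM (median 120). Eif5a, which carries the amino acid hypusine and helps the ribosome over difficult stretches, ranged from 252 to 1248 CPM (median 711). Its relative Eif5a2 was detected in 5 cells (0 to 117 CPM) and was lower per kilobase in all 73. Eif6, which keeps the ribosomal subunits apart, ranged from 0 to 548 CPM (median 94.7) and was detected in 57 cells.

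The elongation genes were dominated by Eef1a1, described further on. Eef1g, Eef1b2 and Eef1d belong to eEF1B, which recharges eEF1A. Eef1g ranged from 0.0944 to 559 CPM (median 204), Eef1b2 from 30.2 to 408 CPM (median 147) and Eef1d from 0 to 283 CPM (median 58.9). Eef1g shares 64.3% of its 50-base stretches with other genes. Eef1e1, a part of the tRNA synthetase complex, was detected in 37 cells (0 to 181 CPM). Eef2 ranged from 141 to 1154 CPM (median 491), while Eef2k, the kinase that stops it, was detected in 28 cells (0 to 190 CPM, median 2.35).

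Of the enzymes that methylate the factors, Eef1akmt1 was the most frequent. It was detected in 43 cells (0 to 219 CPM, median 34.5), Eef1akmt2 in 26 and Eef2kmt in 20. Eef1aknmt was detected in 6 cells, Eef1akmt4 in 3 and Eef1akmt3 in 1. No cell reached 10 CPM for 5 of the 72 genes. Eif4a3l1, Eif4e1b and Eif4ebp3 had no count at all, Eif2c5 had 2 counts in 1 cell, and the fifth was Eef1a2. Eif4a3l2 reached 60.6 CPM in 1 cell and was under 10 CPM in all others.

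**Figure D2:**
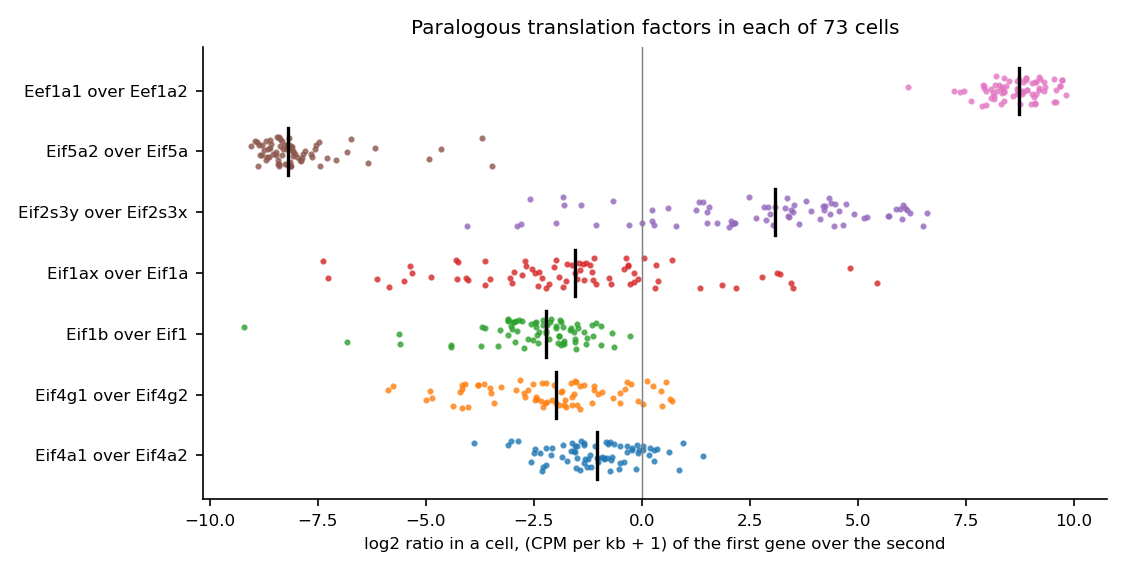
Log2 ratio of related factor genes in each of 73 cells, on levels per kilobase of exon with 1 added; each point is a cell, the black bar is the median and the line at 0 marks equal levels. Eef1a1 over Eef1a2 lies right of 0 in all 73 cells, Eif5a2 over Eif5a and Eif1b over Eif1 lie left of 0 in all 73, and Eif1ax over Eif1a and Eif2s3y over Eif2s3x spread over both sides.

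Few factors followed Slc26a5 closely. Spearman's rho across the 73 cells reached 0.5 for 1 of 58 tested factors (1.72%), which was Eef1a1, against 1.35% of all genes tested. It was -0.5 or lower for 0 factors, against 0.87% of all genes. These shares of members are near the background. The median rho of the 58 factors was 0.039, and that of all genes tested was -0.030, with 32 factors positive and 26 negative (55.2% positive, against 43.3% of all genes). At the lower limit of 0.3, added after the values were seen, 6 factors (10.3%) were higher with Slc26a5, against 6.17% of all genes, and 2 (3.45%) were at -0.3 or lower, against 6.8%.

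The 6 factors at 0.3 or higher came from different steps. They were Eef1a1 (0.63), Eif1a (0.43), Eef2 (0.42), Eif3h (0.40), Eif5 (0.33) and Eif5a (0.31). With ranks corrected for the ribosomal protein share of counts, rho was 0.296 for Eif5, 0.26 for Eef2 and 0.23 for Eif1a. It was 0.22 for Eif5a, 0.091 for Eif3h and 0.39 for Eef1a1. These 6 were picked by their uncorrected rho, and the share of all genes at 0.3 after the correction is not given. Eif3h, a subunit of eIF3, ranged from 0 to 484 CPM (median 135). Next came Eif1 (0.25), Eif4h (0.25), Eif3g (0.21) and the exon-junction helicase Eif4a3 (0.20). Eef1a1 and Eef2, the factors that act on every codon, were among the upper 3, with the start codon factor Eif1a between them. Whether a step of translation stands out was not tested. The genes of eEF1B, which recharges eEF1A, were not among the upper 3, with rho of 0.072 for Eef1b2, 0.055 for Eef1d and -0.23 for Eef1g.

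At the other end stood mostly genes with sparse counts, several of which restrain translation. Eif2ak1 had a rho of -0.38, Eef1akmt1 of -0.34, Eif4ebp2 of -0.29, Eif2ak4 of -0.29 and Eif2b3 of -0.26. Eef2k and Eif2ak2 were both at -0.24, and Eif3i, at -0.18, and Eif2b5, at -0.15, closed the lowest 10 together with Eef1g. All 3 tested eIF2 alpha kinases were negative (median -0.29). These 3 were detected in 16 to 40 cells, so many of their ranks are ties or levels of a few counts, and no weight can be put on such values.

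**Figure D3:**
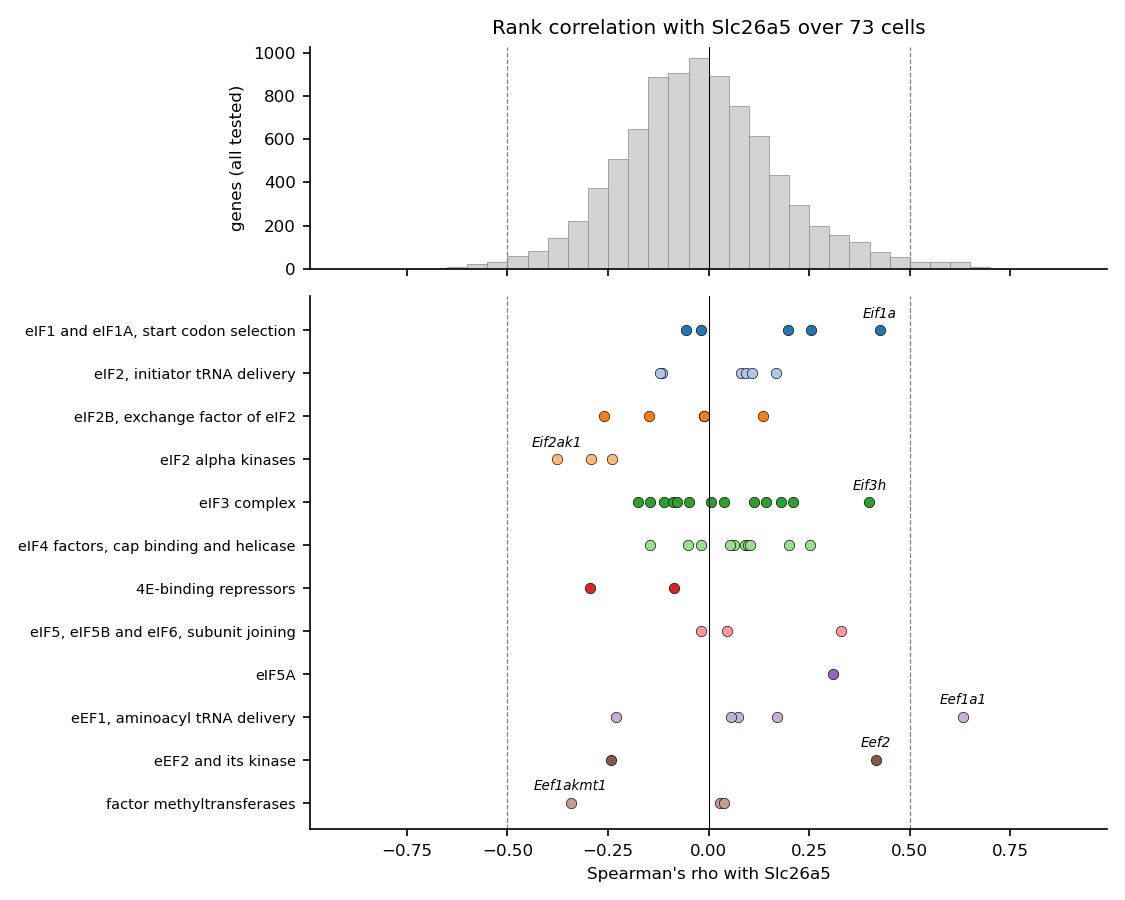
Spearman's rho with Slc26a5 over 73 cells, for all 8618 genes tested (upper panel, number of genes per 0.05 of rho) and for the 58 tested factors by role (lower panel, a point per gene); dashed lines mark 0.5 and -0.5. Eef1a1, at 0.63, is the only factor past a dashed line, and the other factors lie between -0.38 (Eif2ak1) and 0.43 (Eif1a).

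Complexes did not move as units with Slc26a5. The 13 tested eIF3 genes had a median rho of 0.0057 with 7 positive and 6 negative, the 6 eIF2 genes a median of 0.087, the 5 eIF2B genes of -0.012 and the 10 eIF4 genes of 0.077. The 5 genes of eIF1 and eIF1A had a median of 0.20 and the 5 tested eEF1 genes of 0.072. Summed over a role, the CPM of the eEF1 genes had a rho of 0.55 with Slc26a5, which Eef1a1 dominates, and that of eIF3 one of 0.016.

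Eef1a1 encodes the main eEF1A of dividing and many other cells and is found at chr9:78478449-78489151 of mm10, on the minus strand. It read 177 CPM in cell 8, the lowest, 1067 CPM at the median and 2407 CPM in cell 35, the highest. The highest level was 13.6 times the lowest. Its rho with Slc26a5 was 0.63 (Pearson's r 0.64 on log2(CPM + 1)), rank 25 of the 8618 genes. The 4 cells with no Slc26a5 count had 177, 591, 732 and 838 CPM of Eef1a1, all under its median. Cell 35 had 1132 CPM of Slc26a5, the second highest, but the cell with the most Slc26a5, cell 64 with 1229 CPM, had 1227 CPM of Eef1a1, not far above the median, and cell 44 had 1937 CPM of Eef1a1 with 19.6 CPM of Slc26a5.

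**Figure D4:**
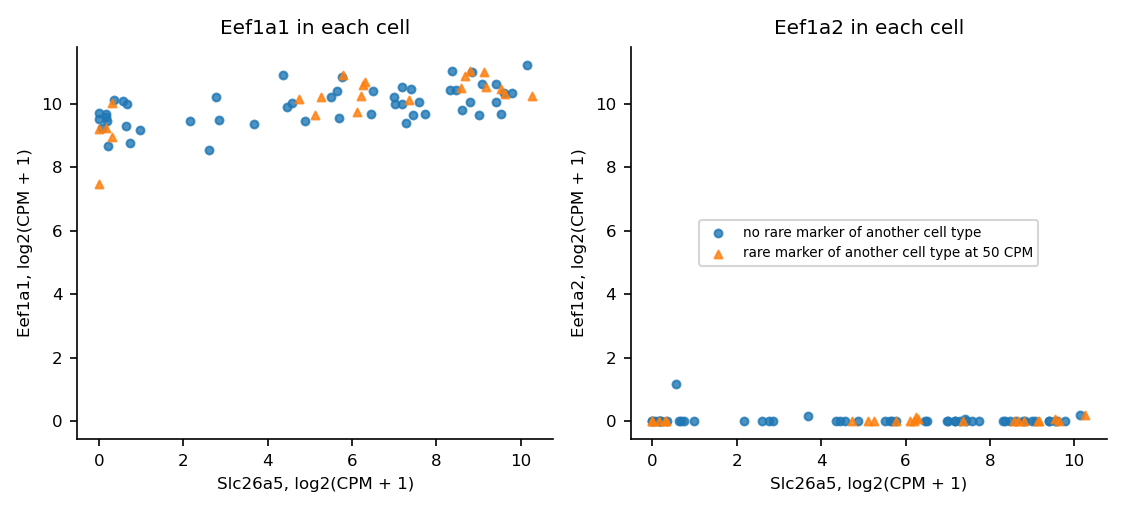
Eef1a1 (left) and Eef1a2 (right) against Slc26a5 in each of 73 cells, all as log2(CPM + 1); triangles are the 22 cells with 50 CPM or more of a gene of another cell type that few cells held, and circles are the other 51 cells. Eef1a1 tends to be higher in cells with more Slc26a5, and Eef1a2 stays at or near 0 along the whole axis except in 1 cell at 1.27 CPM.

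Other quantities moved with the same cells. The ribosomal protein share of counts, 1.27% to 2.93% of a library, had a rho of 0.59 with Eef1a1 and 0.67 with Slc26a5. With ranks corrected for it, the rho of Eef1a1 with Slc26a5 was 0.39, under the limit of 0.5. The mitochondrial share, 1.81% to 13.0%, had a rho of -0.36 with Eef1a1 and -0.49 with Slc26a5, and correction for it gave 0.56. The library total had a rho of 0.20 with Eef1a1 and the number of genes with a count one of -0.16. The number that each cell carries in its label had a rho of 0.32 with Eef1a1. What this numbering stands for is not given, and its part was not tested.

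Markers of supporting cells and glia moved with Eef1a1 as well. The 18 supporting cell and glial markers summed to 0 to 1826 CPM in a cell (median 66.8), with a rho of 0.55 with Eef1a1 and 0.52 with Slc26a5. Among them Sox10, a transcription factor of glia and of cochlear supporting cells, had a rho of 0.54 with Eef1a1, while Prox1, Mbp and Pmp22 were detected in no cell. Correction for this sum, an alternative chosen after the values were seen, gave a rho of Eef1a1 with Slc26a5 of 0.48. Without the 22 cells with a rare marker of another type it was 0.56 over 51 cells. The summed outer hair cell markers had a rho of 0.50 with Eef1a1, the summed inner hair cell markers one of -0.44 and the summed general hair cell markers one of -0.41. Neuron markers summed to 48.7 to 1519 CPM (median 477), with a rho of 0.28, and Elavl4, Gap43, Prph and Th were detected in no cell. Endothelial markers summed to 0 to 90.5 CPM, with a rho of -0.37, and Cdh5, Flt1 and Kdr were detected in no cell. The rho with Eef1a1 was 0.023 for mesenchyme markers, -0.014 for blood, 0.097 for immune and 0.049 for stria markers. Immune markers summed to 7391 CPM in the highest cell, with a median of 0.705 CPM. The part of these quantities in the relation was not tested beyond the corrected values.

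Reads of Eef1a1 are hard to place, since 60.6% of its 50-base stretches recur in 21 other annotated genes. Of these, 17 are rows of the table and 12 had a count, with summed levels of 0.881 to 94.3 CPM (median 3.59). With them added to Eef1a1, its rho with Slc26a5 was 0.63.

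Reads of its relative Eef1a2, by contrast, can be told from Eef1a1. Eef1a2 is found at chr2:181147653-181157014, also on the minus strand, and none of its 50-base stretches occurs in another annotated gene. The coding sequences have 1108 of 1386 aligned bases the same (79.9%) and no identical run longer than 23 bases. The first 120 coding bases of both, from the GENCODE vM21 transcripts, are shown because reads of these genes can be told apart by such differences, and capitals mark the 18 bases that differ:
Eef1a1: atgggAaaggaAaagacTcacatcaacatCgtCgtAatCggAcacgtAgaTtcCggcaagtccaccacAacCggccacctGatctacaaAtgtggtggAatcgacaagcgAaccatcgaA
Eef1a2: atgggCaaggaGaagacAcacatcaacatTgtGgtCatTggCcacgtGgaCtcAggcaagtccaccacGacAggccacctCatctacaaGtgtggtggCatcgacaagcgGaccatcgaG

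There was almost no Eef1a2 in these cells. All 73 libraries together held 1496081 counts of Eef1a1, against 28 of Eef1a2, so that Eef1a2 made up 0.00187% of both (exact Clopper-Pearson 95% interval 0.00124 to 0.00270, counting error only, with PCR copies not separable). A count was present in 8 cells, and 65 had none. Cell 48 held 16 of the 28 counts, which is 1.27 CPM, beside 1092 CPM of Eef1a1 and 0.476 CPM of Slc26a5. In the other 7 cells there were 1 or 2 counts, and a cell without a count could still hold up to 0.272 CPM in the shallowest library, or 0.0807 CPM in the deepest, by a limit of 3 counts.

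No exchange between the relatives could therefore be measured across these cells. Since all were taken at postnatal day 14, a change with age could not be seen either. Eef1a1 exceeded Eef1a2 in 73 of 73 cells, with a median log2 ratio, after adding 1 CPM to each, of 10.05 (SD 0.68 over cells, range 7.47 to 11.05). This ratio followed Eef1a1 itself, with a rho of 0.98, so its rho of 0.64 with Slc26a5 repeats that of Eef1a1. Between the genes rho was 0.23, and between Eef1a2 and Slc26a5 it was 0.16, both resting on 8 cells with a count. The cell with the lowest Eef1a1, cell 8, had no Eef1a2 count.

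Among the factors themselves there was little shared movement. Of 1653 pairs of the 58 tested factors, 0 reached a rho of 0.5, against 0.0264% of all pairs of genes tested, and the median was 0.0014, against 0.0040 over all pairs. For comparison, 77 ribosomal protein genes had a median pair rho of 0.13, with 1.33% of pairs at 0.5 or higher. The sets differ in detection, since most of these 77 genes were detected in every cell, against 10 of the 58 factors. Cells without a count have tied ranks, and the part of detection in the difference between the sets was not tested. The highest factor pairs were Eif4e with Eif3e (0.453), Eef1a1 with Eif3h (0.449), Eif4g3 with Eif2s3y (0.447) and Eif1 with Eif1a (0.43). The lowest were Eif4g3 with Eif2s1 (-0.44) and Eif4ebp2 with Eif1 (-0.43). Within eIF3, the 78 pairs had a median of 0.0018 (range -0.34 to 0.26).

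**Figure D5:**
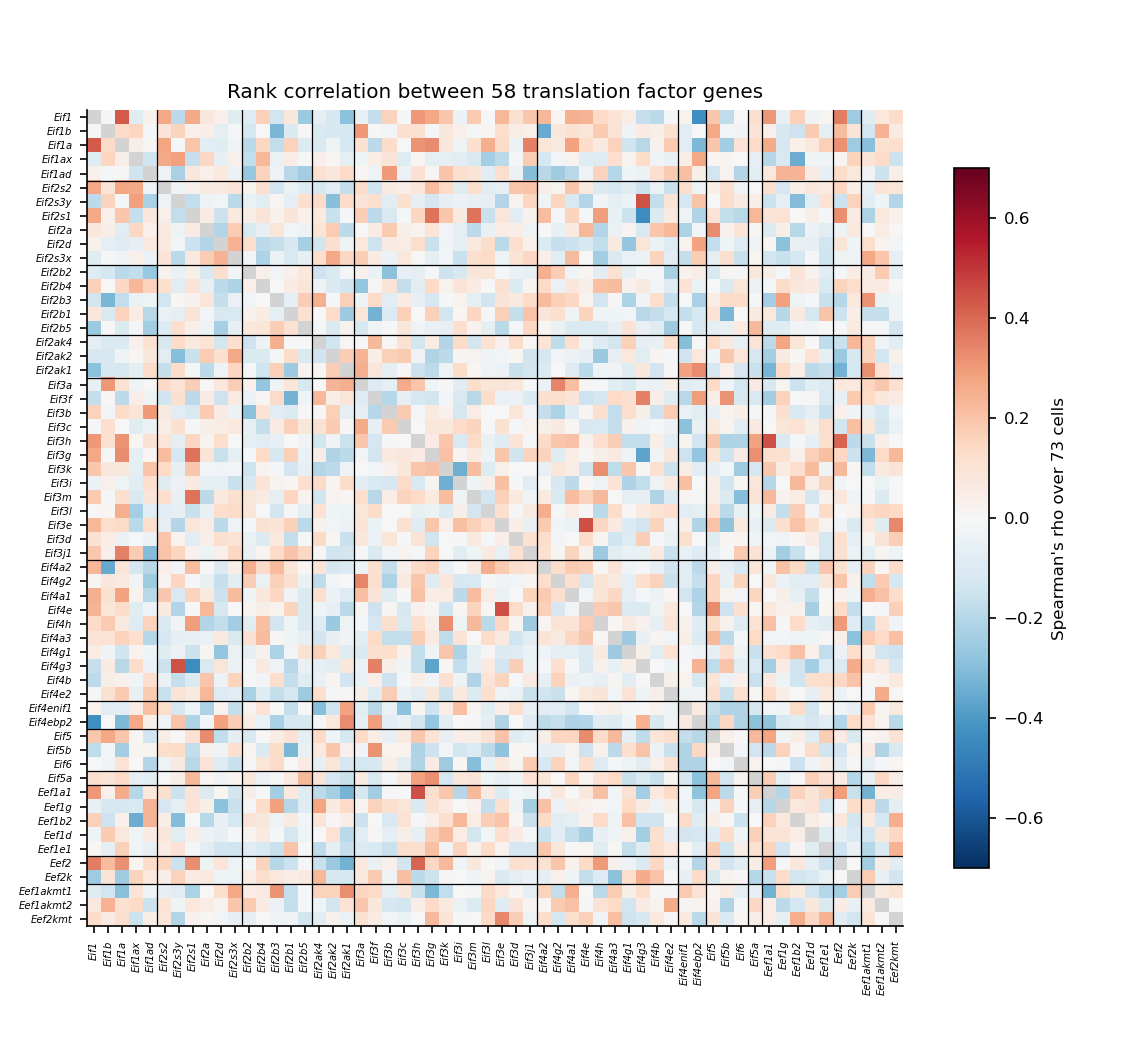
Spearman's rho over 73 cells between each pair of the 58 tested factors, ordered by role with lines between roles; red is positive, blue negative, and the diagonal is grey. No block along the diagonal stands out in red, and the highest pair, Eif4e with Eif3e, is at 0.453.

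With Eef1a1 as the point of comparison, 0 of 57 other factors reached a rho of 0.5, against 0.673% of all genes tested. Their median was 0.0053, against -0.022 over all genes. The genes most like Eef1a1 in their ranks over the 73 cells were thus no translation factors: Anxa5, a membrane-binding annexin (0.67), S100a13 (0.66), Slc26a5 (0.63), Pole, the catalytic subunit of a DNA polymerase (0.62), and Litaf (0.61). The most opposed was Atp2a3, which pumps calcium into internal stores (-0.67).

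Among other genes of the pathway, those for ribosomal proteins were mostly positive with Slc26a5. Of the 77 tested ribosomal protein genes, 8 (10.4%) reached 0.5, against 1.35% of all genes tested, and 72 (93.5%) were positive, against 43.3% (median 0.26). The 10 factors known to have TOP mRNAs, whose translation mTORC1 controls through a run of pyrimidines at their start, split into 5 positive and 5 negative (median 0.018), with Eef1a1 the sole gene at 0.5. Ribosomal protein mRNAs are TOP mRNAs too, and the difference between the lists was not tested.

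Of the 10 targets of the integrated stress response, 5 could be tested, and none reached 0.5 in either direction (median 0.31). Ppp1r15a, which reverses the block of eIF2, had a rho of 0.42 and Asns, asparagine synthetase, of 0.36, while Atf4, the transcription factor of the response, was at 0.061 and Ddit3 at -0.19. Of the 13 mTORC1 genes, 11 were tested and none reached 0.5 (median -0.0016), with Akt1s1 (0.22) and Rheb (0.19) the highest and Tsc2 (-0.28) and Mtor (-0.23) the lowest. The 14 other translation factors had a median of 0.081, led by Paip2 (0.34) and Pabpc1 (0.33), with Dohh (-0.23) and Mcts1 (-0.14) the lowest. Of the 13 immediate early and stress genes, which handling of cells can switch on, none reached 0.5 (median -0.18). Fos (-0.46) and Hspa1b (-0.41) were the lowest and Junb (0.28) and Btg2 (0.24) the highest.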

How the data were processed

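Full-length cDNA of each picked cell was made with a Smart-Seq HT kit, which adds no molecular identifier (PCR copies are therefore counted too), and was cut into libraries by tagmentation, per the labels' protocols. HISAT2 2.2.1, StringTie 2.2.1, featureCounts 2.0.1 and the build mm10 are named in the submitters' processing notes. Their roles, the annotation release and the treatment of strand and of reads with several matches are not given in the sources used here. Whole-number counts for every gene in every cell were deposited by the authors. The reporter row WPRE, 0.0161% of counts, was kept out of the totals, and no pair of libraries was identical (0 of 2628).

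CPM were computed as counts over the library total. Spearman's rho over the 73 cells was computed for the 8619 genes with a mean of at least 10 CPM, Slc26a5 included. With 1 group and no animal named, no count model was fitted. Exon lengths (union of exons), positions and 50-base stretches came from GENCODE vM21 of the same build, in which 69 of the 72 genes were found. Of these, 15 shared over 20% of their stretches with other genes and 29 had an exon overlap with a neighbour, which makes their levels uncertain. The spread trend was a lowess fit (span 0.3) of the log10 squared coefficient of variation on the log10 mean. The steps for correlation were tested on simulated counts with the same spread setting for every gene. This checks the computation only and does not cover the many zeros of sparse genes. The members, lists and limits were chosen with earlier results of these data known. The text names any member, and in full the 15 with the highest means, the 10 highest and 10 lowest by rho with Slc26a5, related pairs, the members with no cell at 10 CPM, the 5 genes most like Eef1a1 and the outer 2 of each pathway list. Alternatives covered scaling, filters, the correlation measure, covariates and cells left out. An alternative scaling used TMM factors of edgeR 4.0.16 in R 4.3.3. All else was computed with pandas 2.3.3, numpy 2.4.6, statsmodels 0.14.6 and scipy 1.17.1 in Python 3.11.15, and drawn with matplotlib 3.10.9.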

Additional observations from a re-analysis of the deposited data

Results flagged for a closer look

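Of the 13 pseudogene rows left out by their symbols, 8 had more than 3 counts in at least 1 cell, a signal in rows that no comparison used. The highest level was 20.8 CPM for Eif4a-ps4, whose mean was 5.20 CPM and whose rho with Eif4a1 over the 73 cells was 0.75. For the others the highest level was 4.22 CPM for Eif2s3x-ps1, with counts in 1 cell only, 3.71 CPM for Eef1a1-ps1, 3.54 CPM for Eif5al3-ps, 1.44 CPM for Eif1-ps1, 1.17 CPM for Eif1-ps2, 0.630 CPM for Eef2-ps2 and 0.373 CPM for Eif3s6-ps2. Whether these counts are transcripts of the copies or reads of the parent genes was not tested.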

How the results depend on the processing

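With ranks corrected for the ribosomal protein share, 0 factors reached 0.5, and the rho with Slc26a5 was 0.39 for Eef1a1 and 0.39 for the ratio of Eef1a1 to Eef1a2. With ranks corrected for supporting cell and glial markers, chosen after the data were seen, 0 factors reached 0.5, and rho was 0.48 for Eef1a1, 0.49 for the ratio, 0.041 for Eef1a2 with Slc26a5 and 0.12 for Eef1a1 with Eef1a2. The shares of all genes at 0.5 after these corrections are not given, and the cause was not tested. As Pearson's r on log2(CPM + 1), Eef1a1 with Eef1a2 gave 0.073 and Eef1a2 with Slc26a5 gave -0.096, and on log2(CPM + 10) they gave 0.058 and -0.098. Without the cells with a rare marker of another type, Eef1a2 with Slc26a5 gave 0.036. Detection at 1 count put 18 factors in every cell, in place of 10. The median log2 ratio of Eef1a1 to Eef1a2 was 6.74 with 10 CPM added, 8.73 per kilobase of exon and, added after the data were seen, 9.20 per kilobase of the longest coding transcript. The other 116 values stayed within the tolerance of 0.1 in rho or within 1.5 times a count, and the median rho of the factors ran from -0.0055 to 0.067 over 18 alternatives. No paired analysis was possible because there is 1 group. Depth limits Eef1a2, where most cells hold no count.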

Other observations

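Beyond the genes already named, the log2 ratio of Eef1a1 to Eef1a2, which follows Eef1a1, had other genes among its 10 highest and 10 lowest rank correlations. Calb1, a calcium buffer, had a rho of 0.62 with the ratio over the 73 cells, and S100a1 of 0.61. Aqp11, an aquaporin of internal membranes, was at 0.61 and Clu, a secreted chaperone, at 0.60. On the other side stood Kcnab1, a subunit of potassium channels, at -0.59 and Igfbp5, a binding protein of insulin-like growth factors, also at -0.59, with Tomm7, of the mitochondrial import pore, at -0.57. All of these genes also had a rho of at least 0.5 in size with Slc26a5, in the same direction.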
